A study of Homo sapiens with 8 samples.

Results

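The set followed here holds immediate-early genes outside the AP-1 family, namely EGR1, EGR2, EGR3, IER2, IER3, IER5, NR4A1, NR4A2, NR4A3 and SRF. The 10 genes were found by exact gene symbol, of the 27945 in the count table. In senescent shControl cells EGR1, EGR2, EGR3, IER3 and NR4A3 were called higher than in control cells. All of these but EGR1 had too few control counts to reach the minimum of the low-count filter, so their values are a description. Knockdown of METTL14 in senescent cells was followed by higher nascent RNA of EGR1, EGR2, IER2, IER5, NR4A1 and NR4A3. Of these, EGR2 was below that minimum with shControl and is a description. With knockdown of METTL3, NR4A1, NR4A2 and NR4A3 rose and IER3 and SRF fell. The IER3 fall is a description and kept its call in 5 of 12 alternative fits, and the SRF fall did so in 10 of 12. The EGR1 level of shMETTL14 cells was 4.12 times that of shMETTL3 cells, whereas NR4A3 was lower in shMETTL14 than in shMETTL3 cells, at 0.61 of its level. The NR4A3 difference kept its call in 9 of 12 alternative fits. With trends on gene length and GC content taken out, the EGR1 difference went from 2.04 to 1.38 on the log2 scale.

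Immediate-early genes are switched on within minutes of a growth factor or stress signal without the need for new protein, and most are switched off again soon after. EGR proteins are zinc finger transcription factors that bind GC-rich sites. IER proteins are short-lived regulators of transcription, survival and stress signalling. NR4A proteins are orphan nuclear receptors that act without a known physiological ligand. SRF is the transcription factor that, with ternary complex factors activated by the RAS and ERK pathway, binds the CArG box of many of these genes, and with MRTF cofactors drives genes of the actin cytoskeleton.

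The assay was fastGRO-seq, in which engaged polymerases of isolated nuclei extend their RNA with 4-thio-UTP and the labelled RNA is captured and sequenced. All cells were IMR90 human lung fibroblasts with a retrovirally delivered ER:RAS, a fusion of the estrogen receptor and oncogenic H-RAS. The 4 groups, of 2 libraries each, were control cells and 3 groups made senescent by 100 nM 4-OHT and collected on Day 6, which carried shControl, shMETTL3 or shMETTL14. METTL3 and METTL14 are the subunits of the RNA m6A methyltransferase. The control cells have no labelled shRNA, so senescence and shRNA infection cannot be told apart where they are the baseline. The ER:RAS retrovirus was selected for with G418. Cells with shRNA lentivirus were selected with puromycin, whose part in comparisons with control cells cannot be told apart either.

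Library totals ran from 14897360 to 20306299 counts, of which 86.2% to 92.5% lay in 21 ribosomal RNA rows, leaving 1513930 to 2048475 counts per library on other genes. METTL3 counts were 77 and 47 for shControl and 16 and 19 for shMETTL3, a log2 difference of -2.04 ± 0.31 (SE; adjusted p = 1.8e-05, edgeR's quasi-likelihood test). METTL14 counts were 24 and 28 for shControl and 18 and 14 for shMETTL14, and this difference of -0.86 ± 0.34 did not pass the test (adjusted p = 0.076, edgeR). These are counts of nascent RNA and do not measure mature mRNA or protein. For both knockdowns the paper refers to a western blot. Fibroblast markers summed to 24330 to 25633 counts in control libraries and to 7256 to 11353 in senescent ones, a difference carried mostly by COL1A1, COL1A2 and COL3A1, while VIM had 3628 to 3632 counts in control and 3356 to 4417 in senescent libraries. CD68 made up most of the leukocyte sum of 17 to 63 counts, epithelial markers summed to 23 to 70 and endothelial markers to 2 to 10, with CDH1, EPCAM, CDH5, PECAM1, CD14 and PTPRC at 0 to 4 counts in each library. The part of these shifts in the results below was not tested.

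Promoter sequence is shown for EGR1, EGR2, SRF and NR4A3, since EGR1 and EGR2, which rose with shMETTL14, share the CArG box with SRF, which did not. RefSeq promoter windows (GRCh38.p14, 250 bases before to 50 after a start site) were found for 7 of the 10 genes, 11 windows in all. No window was found for EGR3, IER3 and NR4A2. The CArG box (CC, 6 A or T letters, GG, read on both strands) stood in 1.29% of all 35116 windows and in 3 of the 11 windows here, in EGR1, EGR2 and SRF. Its copies began at -105 and -83 from the start site in EGR1, at -71 in EGR2 and at -30 and -10 in SRF. Capitals in the first 3 stretches mark the CArG box.
EGR1 promoter, chr5:138465364-138465415, plus strand: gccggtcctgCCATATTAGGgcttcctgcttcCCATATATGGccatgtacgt
EGR2 promoter, chr10:62816418-62816447, minus strand: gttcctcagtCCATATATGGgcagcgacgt
SRF promoter, chr6:43171229-43171268, plus strand: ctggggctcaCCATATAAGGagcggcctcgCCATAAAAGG
The NR4A3 window had no CArG box but held 4 copies of the CRE core, TGACG on either strand (CGTCA where it lies on the other strand), which CREB proteins recognise and which is marked by capitals.
NR4A3 promoter, chr9:99821766-99821874, plus strand: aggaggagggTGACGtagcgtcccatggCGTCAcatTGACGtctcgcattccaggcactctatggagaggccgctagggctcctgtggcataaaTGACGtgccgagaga
The CRE core occurred in 24.6% of all windows and in 5 of the 11, those of EGR1, EGR2 and SRF among them, with IER2 and NR4A3, so it does not set NR4A3 apart. The full CRE, TGACGTCA, which contains the core, was in 1.85% of all windows and in 0 of the 11. The EGR site GCGNGGGCG was in 9.43% of all windows and in 3 of the 11, in EGR1, EGR2 and SRF. A match is a description of the letters and not evidence of binding.

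Among the 10 genes EGR1 was the most transcribed per base in every group. Its mean RPKM, the counts scaled for gene length and TMM library size, was 1.39 ± 0.279 (SD, n = 2) in control, 2.74 ± 0.12 in shControl, 2.02 ± 0.569 in shMETTL3 and 8.31 ± 0.985 in shMETTL14 cells. IER2 came next by mean in the 3 senescent groups, at 0.986 ± 0.246 (SD, n = 2), 0.729 ± 0.338 and 2.19 ± 0.357 RPKM. Its lead was within the spread for shControl, where IER3 was at 0.902 ± 0.106 (SD, n = 2), and for shMETTL3, where IER5 was at 0.443 ± 0.307 RPKM. In control cells IER5 at 0.691 ± 0.051 and IER2 at 0.663 ± 0.00788 (SD, n = 2) did not differ beyond their spread. At the other end, EGR2 at 0.00564 ± 0.00797 and EGR3 at 0.00438 ± 0.0062 RPKM (SD, n = 2) did not differ in control cells, where each had 1 and 0 counts, and NR4A1 had the lowest mean with shControl at 0.0263 RPKM. By mean CPM, counts scaled by TMM library size without gene length, the shMETTL14 group was the highest for 7 genes, shMETTL3 for NR4A2 and NR4A3, and control cells for SRF. Control cells had the lowest mean of 8 genes, and shMETTL3 cells that of IER5 and SRF.

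**Figure D1:**
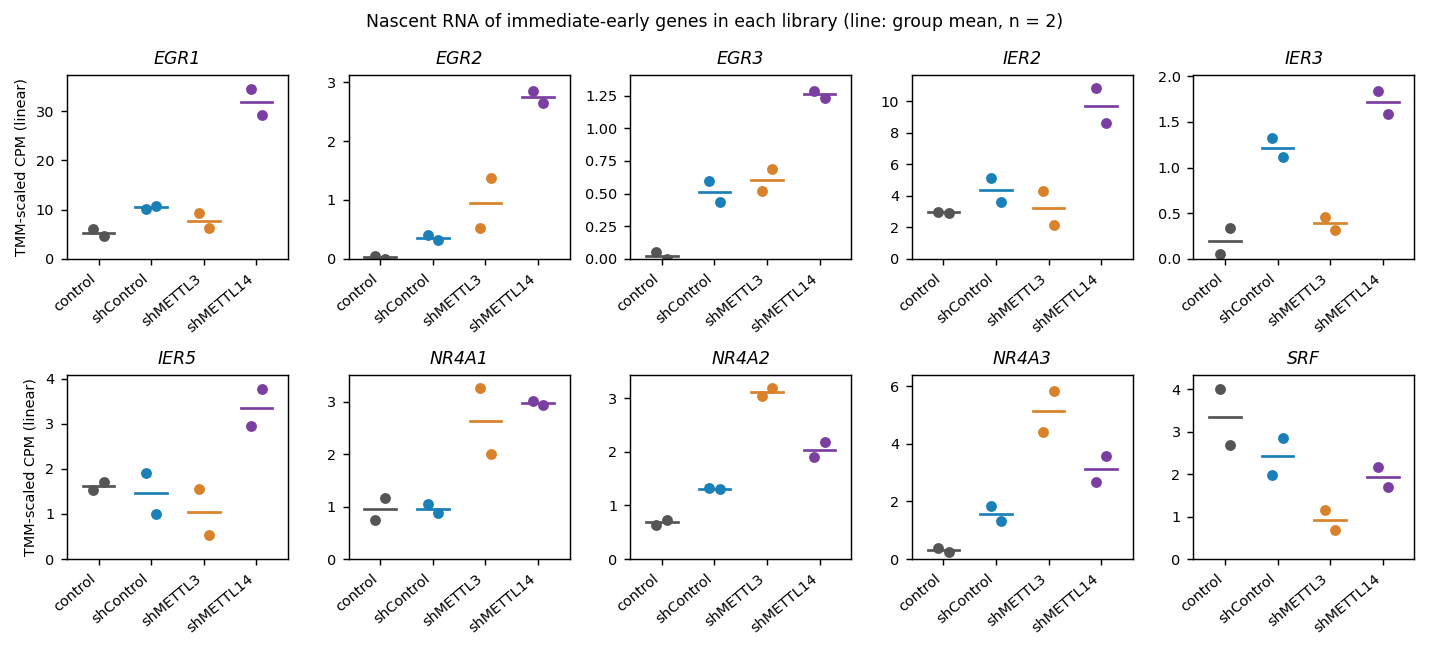
TMM-scaled CPM (linear axis from 0) of each gene in each of the 8 libraries, with a dot per library and a line at the group mean. The shMETTL14 dots are the highest for EGR1, with group means of 31.8 against 10.5 CPM for shControl, whereas for NR4A2 and NR4A3 the shMETTL3 dots are the highest, with means of 3.11 and 5.12 CPM.

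Tests used edgeR's quasi-likelihood method, fitted once to the 8 libraries with TMM scaling and Benjamini-Hochberg adjustment over the 12844 genes that passed a filter on low counts, and a gene was called at an adjusted p below 0.05. All 10 genes passed the filter. EGR2 and EGR3 reached its minimum only in the shMETTL3 and shMETTL14 libraries, IER3 only in the shControl and shMETTL14 libraries, and NR4A3 only in the senescent groups. Where one of these genes is compared between a group at the minimum and a group below it, it was tested through the higher group, and its values and its place in a count of calls are a description. Where both groups lay below the minimum, as for EGR2 and EGR3 between shControl and control and for IER3 between shMETTL3 and control, it was tested through the other groups. Without the filter each call of these genes in the 6 comparisons was also made, and EGR2 was called with shMETTL3 as well, at 1.42 (adjusted p = 0.048, edgeR). In a fit of control and shControl libraries alone EGR2 and EGR3 did not pass it and have no test, nor did these genes and IER3 in a fit of control and shMETTL3 libraries alone. The authors added Drosophila nuclei as a spike-in, but it was not used here, so each fold change is read against the bulk of genes in the same fit. Fewer cells and less RNA per cell cannot be told apart in bulk libraries. Scaling by library size alone shifted the median log2 fold change of all genes to -0.53 for shControl against control, 0.58 for shMETTL3 and 0.35 for shMETTL14 against shControl, and -0.25 for shMETTL14 against shMETTL3.

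EGR1, the best known member of the family and a target of growth factor and RAS signalling, had 123 and 94 counts in control libraries, 154 and 174 for shControl, 162 and 117 for shMETTL3, and 617 and 495 for shMETTL14. On the CPM scale no groups overlapped, although the lower shMETTL3 library at 6.20 lay just above the higher control library at 6.08. EGR1 rose by 0.98 ± 0.19 (SE) on the log2 scale in senescent shControl cells (adjusted p = 0.00022, edgeR), and by a further 1.60 ± 0.16 with shMETTL14 (adjusted p = 4.2e-08, edgeR). With library size alone the senescence difference was 0.48 and missed the threshold (adjusted p = 0.055, edgeR). The difference between shMETTL3 and shControl was -0.44 ± 0.18 (adjusted p = 0.078, edgeR), and it was 0.16 with library size alone. With replicate number as a block it was -0.46 and passed (adjusted p = 0.045, edgeR). Without shMETTL3 replicate 1 it was -0.77 and passed (adjusted p = 0.0027, edgeR). Against control cells, EGR1 was higher by 0.53 ± 0.19 with shMETTL3 and by 2.58 ± 0.17 with shMETTL14 (adjusted p = 0.027 and 2.5e-12, edgeR). Without control replicate 2 or shMETTL3 replicate 1 the first of these became 0.34 and 0.22 and was no longer called, nor was it with DESeq2 (adjusted p = 0.063).

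EGR2, which directs myelination and cell differentiation, had 1 and 0 counts in control libraries, 6 and 5 for shControl, 9 and 26 for shMETTL3, and 51 and 45 for shMETTL14. The groups did not overlap, and the shMETTL3 libraries were far apart from each other. With a single count in the control group, the ratio of shControl to control counts scaled for depth was 14.4, with an exact 95% interval of 2.09 to 618 that covers counting error only. EGR2 was called in that comparison (adjusted p = 0.017, edgeR; 0.0053 without the filter), but not with DESeq2 (adjusted p = 0.079), nor without control replicate 2 (adjusted p = 0.13, edgeR) or shControl replicate 1 (adjusted p = 0.1, edgeR). With shMETTL14 its level was 2.94 ± 0.48 above shControl on the log2 scale, which is a description (adjusted p = 5.2e-05, edgeR; 3.7e-09 without the filter). The shMETTL3 difference of 1.43 ± 0.56 did not pass (adjusted p = 0.064, edgeR), while it passed without shMETTL3 replicate 1 at 1.93 and was 0.52 without shMETTL3 replicate 2 (adjusted p = 0.0049 and 0.68, edgeR). The ratios to control were 39.3 (6.61 to 1600) with shMETTL3 and 112 (19.6 to 4470) with shMETTL14.

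EGR3, a target of calcium and antigen receptor signals, had 1 and 0 counts in control libraries, 9 and 7 for shControl, 9 and 13 for shMETTL3, and 23 and 21 for shMETTL14. The shMETTL14 libraries were the highest, and the shControl and shMETTL3 libraries overlapped. Its ratio of shControl to control counts was 20.9, with an exact interval of 3.25 to 876. EGR3 was tested there because of its counts in the knockdown groups, and it was called (adjusted p = 0.0023, edgeR; 0.00046 without the filter). The shMETTL14 value was 1.29 ± 0.50 above shControl on the log2 scale and did not pass the test (adjusted p = 0.065, edgeR), though it did with library size alone (1.63, adjusted p = 0.012, edgeR) and with only the groups compared (1.27, adjusted p = 0.022, edgeR). The shMETTL3 value was 0.24 ± 0.55 and was not called (adjusted p = 0.8, edgeR). The ratios to control were 24.7 (3.99 to 1020) with shMETTL3 and 51.4 (8.75 to 2080) with shMETTL14.

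Of the IER genes, IER2 had 60 and 60 counts in control libraries, 78 and 58 for shControl, 75 and 41 for shMETTL3, and 194 and 146 for shMETTL14. IER2 is a nuclear protein induced by serum that takes part in transcriptional control. Only the shMETTL14 libraries stood clear of the rest, and the test gave a rise of 1.15 ± 0.23 over shControl (adjusted p = 0.00049, edgeR). The differences of 0.57 ± 0.26 between shControl and control (adjusted p = 0.11, edgeR) and of -0.44 ± 0.26 between shMETTL3 and shControl (adjusted p = 0.23, edgeR) did not pass. The former was called when only the groups compared were fitted (0.61, adjusted p = 0.021, edgeR), and the latter was 0.16 with library size alone. Without shMETTL3 replicate 1 it was -1.02 and passed (adjusted p = 0.0062, edgeR).

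IER3, which restrains cell death and feeds back on ERK and NF-kappaB signalling, had 1 and 7 counts in control libraries, 20 and 18 for shControl, 8 and 6 for shMETTL3, and 33 and 27 for shMETTL14. On the CPM scale shControl and shMETTL14 lay above the other groups, and shMETTL3 overlapped with control cells in part of its range. The gene rose by 2.59 ± 0.57 in senescent shControl cells (adjusted p = 0.0011, edgeR) and fell by 1.64 ± 0.52 with shMETTL3 (log2, adjusted p = 0.023, edgeR). Both values are a description, since control and shMETTL3 libraries lay below the filter's minimum. The rise was 1.82 without control replicate 1 and 4.44 without control replicate 2, and was called in both cases (adjusted p = 0.04 and 0.00067, edgeR). The fall with shMETTL3 was lost with DESeq2 (adjusted p = 0.087), with library size alone (-1.03, adjusted p = 0.1), without shControl replicate 1 or 2 (adjusted p = 0.13 and 0.077) and without shMETTL3 replicate 2 (adjusted p = 0.096). With shMETTL14 the value was 0.49 ± 0.41 above shControl (adjusted p = 0.44, edgeR). IER3 lies 347 bases from FLOT1, and 475 bases of it overlap IER3-AS1, which had at most 1 count in any library. Its annotation holds 6 copies, since the region also occurs on alternate haplotypes, so its reads may have been split.

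IER5, a target of heat shock factor and p53 that modulates protein phosphatase activity, had 31 and 35 counts in control libraries, 29 and 16 for shControl, 27 and 10 for shMETTL3, and 53 and 64 for shMETTL14. The shMETTL14 libraries were above the other 6, which overlapped. The rise with shMETTL14 was 1.21 ± 0.35 (adjusted p = 0.015, edgeR), and it was not called with DESeq2 (adjusted p = 0.076), without shControl replicate 2 (0.80, adjusted p = 0.25) or without shMETTL14 replicate 2 (1.03, adjusted p = 0.13). The senescence difference was -0.16 ± 0.38 and the shMETTL3 difference -0.49 ± 0.42 (adjusted p = 0.8 and 0.43, edgeR). The latter was 0.11 with library size alone, and -1.45 without shMETTL3 replicate 1, where it passed (adjusted p = 0.027, edgeR).

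NR4A2 and NR4A3, but not NR4A1, had their highest mean with shMETTL3. NR4A1 (Nur77), a receptor with roles in cell death and metabolism, had 15 and 24 counts in control libraries, 16 and 14 for shControl, 57 and 38 for shMETTL3, and 54 and 50 for shMETTL14. Control and shControl libraries overlapped at the lower level and both knockdowns at the higher level. It rose by 1.44 ± 0.35 with shMETTL3 (adjusted p = 0.0033, edgeR) and by 1.62 ± 0.34 with shMETTL14 (adjusted p = 0.001, edgeR), and its senescence difference was 0.01 ± 0.40 (adjusted p = 0.99, edgeR). Without shControl replicate 2 the shMETTL3 rise was 1.30 and was not called (adjusted p = 0.064, edgeR).

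NR4A2 (Nurr1), known from dopamine neurons, had 13 and 15 counts in control libraries, 20 and 21 for shControl, 53 and 60 for shMETTL3, and 34 and 37 for shMETTL14. The groups did not overlap, in the order control, shControl, shMETTL14, shMETTL3. The step from shControl to shMETTL3 passed, a rise of 1.24 ± 0.30 (adjusted p = 0.0032, edgeR). The steps from control to shControl, 0.93 ± 0.37, and from shControl to shMETTL14, 0.63 ± 0.32, did not (adjusted p = 0.065 and 0.17, edgeR). The former was called when only the groups compared were fitted (0.97, adjusted p = 0.044, edgeR) and the latter with library size alone (0.98, adjusted p = 0.023, edgeR). Between the knockdowns NR4A2 differed by -0.61 ± 0.27 and was not called (adjusted p = 0.083, edgeR), but was with library size alone (-0.88, adjusted p = 0.015, edgeR).

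NR4A3 (NOR1), the third receptor of the family, had 8 and 5 counts in control libraries, 28 and 21 for shControl, 77 and 110 for shMETTL3, and 48 and 61 for shMETTL14. Its groups followed the same order without overlap, and each step passed. The step from control to shControl is a description, since control libraries lay below the filter's minimum. NR4A3 rose by 2.28 ± 0.44 in senescence (adjusted p = 0.00022, edgeR), by 1.70 ± 0.28 with shMETTL3 (adjusted p = 5.5e-05, edgeR) and by 0.99 ± 0.30 with shMETTL14 (adjusted p = 0.018, edgeR). The shMETTL14 rise was not called with DESeq2 (adjusted p = 0.092), without shControl replicate 2 (0.75, adjusted p = 0.22) or without shMETTL14 replicate 2 (0.76, adjusted p = 0.18). NR4A3 and NR4A1 are the longest genes of the set, at 45036 and 36675 bases, so their counts per base were small.

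SRF was the only gene of the set with its highest mean in control cells. It had 81 and 55 counts in control libraries, 30 and 46 for shControl, 20 and 13 for shMETTL3, and 39 and 29 for shMETTL14. The shMETTL3 libraries were below all others, and shControl overlapped with both control and shMETTL14. SRF fell by 1.41 ± 0.36 with shMETTL3 (log2, adjusted p = 0.0048, edgeR), a fall that was -1.13 without shControl replicate 2 (adjusted p = 0.11, edgeR) and -0.80 with library size alone (adjusted p = 0.059, edgeR). Its differences of -0.46 ± 0.29 in senescence and -0.32 ± 0.32 with shMETTL14 did not pass (adjusted p = 0.26 and 0.52, edgeR), although with library size alone the senescence value was -0.95 and passed (adjusted p = 0.0054, edgeR). Compared with control cells SRF was lower by -1.87 ± 0.33 with shMETTL3 and by -0.78 ± 0.29 with shMETTL14 (adjusted p = 5e-05 and 0.035, edgeR). The latter was lost with DESeq2 (adjusted p = 0.15), without control replicate 1 (-0.46) and without shMETTL14 replicate 1 (-0.95) or 2 (-0.60).

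Counted over the set, 5 of the 10 genes were called higher in senescent shControl than in control cells, where 13.3% of all genes tested were, and 0 were lower, where 13.3% of all genes were. Of these 5, IER3 and NR4A3 were below the filter's minimum in control cells, and EGR2 and EGR3 in both groups, so the count describes the set, and it was also 5 without the filter. With shMETTL3 against shControl, 3 genes were higher against 12.3% of all genes, and 2 were lower against 11.2%, of which IER3 was below the filter's minimum with shMETTL3. With shMETTL14 against shControl, 6 were higher against 9.15% of all genes, EGR2 again being tested through its higher group, and 0 were lower against 12%. The median log2 fold change of the 10 genes was 0.95, -0.10 and 1.18 in these comparisons, beside -0.03, -0.03 and 0.00 over all genes tested. Both knockdowns were compared with the same shControl libraries, so their values stand side by side and were not correlated.

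**Figure D2:**
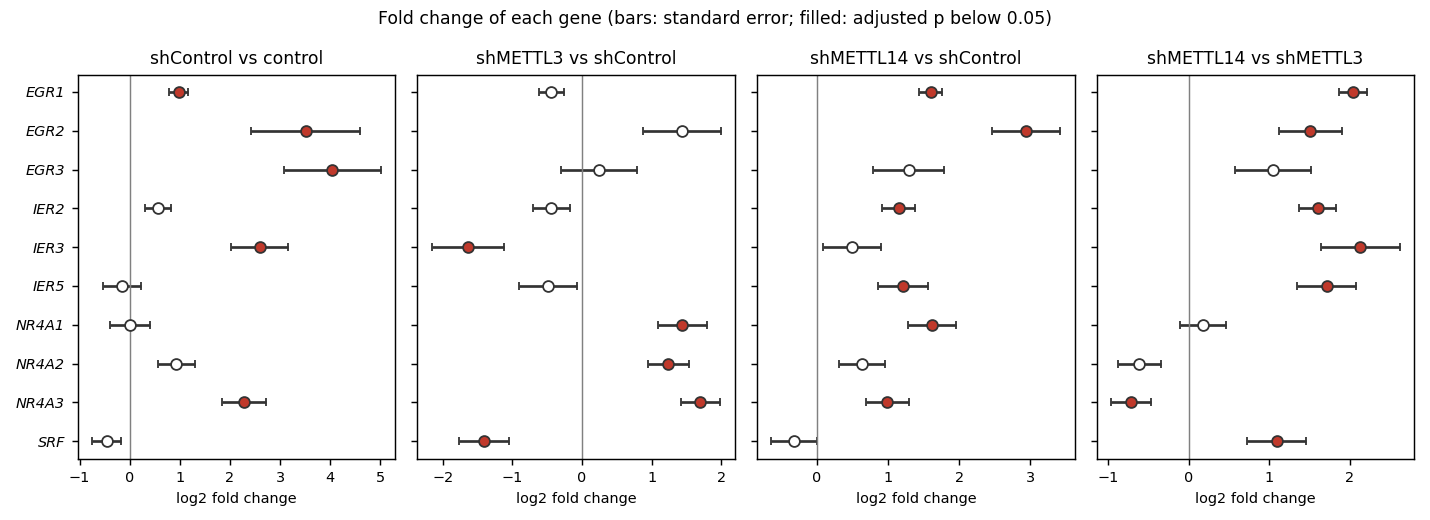
Log2 fold change of the 10 genes in 4 comparisons, with bars for the standard error and filled points for an adjusted p below 0.05 (edgeR). In senescence 5 points are filled and all 5 lie above 0, with shMETTL3 the 3 NR4A points lie above 0 and IER3 and SRF below, and with shMETTL14 the 6 filled points lie above 0.

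Against control cells, 6 genes were called higher with shMETTL3, where 20.1% of all genes were, namely the EGR and NR4A genes, and SRF was lower, as were 20.1% of all genes. With shMETTL14, 9 genes were higher against 19.7% of all genes, and SRF was lower, in a direction in which 20.5% of genes were called. In control cells EGR2, EGR3, IER3 and NR4A3 lay below the filter's minimum. The counts of higher genes therefore describe the set, and the values of these genes against control are a description. The medians were 1.20 and 2.15, beside -0.05 and 0.00 over all genes. NR4A3 was above control by 3.98 ± 0.35 with shMETTL3 and by 3.27 ± 0.38 with shMETTL14 (adjusted p = 6.2e-10 and 9.5e-08, edgeR). NR4A2 was above control by 2.17 ± 0.32 and 1.56 ± 0.34 (adjusted p = 3.4e-06 and 0.00053, edgeR), and NR4A1 by 1.45 ± 0.33 and 1.63 ± 0.33 (adjusted p = 0.00086 and 0.00022, edgeR). IER2, IER3 and IER5 were called with shMETTL14, at 1.72 ± 0.23, 3.09 ± 0.54 and 1.05 ± 0.33 (adjusted p = 9.7e-07, 4e-05 and 0.013, edgeR), and were not called with shMETTL3. The IER3 value with shMETTL14 ran from 2.31 to 4.93 with a library left out. Without shMETTL3 replicate 1, IER5 was called as lower with shMETTL3, at -1.60 (adjusted p = 0.0064, edgeR). IER2 was called with shMETTL3 as well, at 0.64, once trends on gene length and GC content were taken out (adjusted p = 0.025, edgeR). The IER5 call was lost with DESeq2 (adjusted p = 0.07), without control replicate 1 (0.98, adjusted p = 0.081) and without shMETTL14 replicate 2 (0.88, adjusted p = 0.12), and with a trend on gene length taken out (0.77, adjusted p = 0.055).

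The knockdowns were then compared with each other, which tests the difference between them directly. In shMETTL14 against shMETTL3 cells, 6 of the 10 genes were higher, where 16.5% of all genes tested were, and NR4A3 was lower, where 18.7% were. EGR1 differed by 2.04 ± 0.17, IER3 by 2.13 ± 0.49 and IER5 by 1.71 ± 0.37 (adjusted p = 1.3e-09, 0.0012 and 0.00064, edgeR). IER3 was below the filter's minimum with shMETTL3, so its value and its place among the 6 are a description. IER2 differed by 1.60 ± 0.23, EGR2 by 1.51 ± 0.39 and SRF by 1.09 ± 0.36 (adjusted p = 5.9e-06, 0.0033 and 0.021, edgeR). With a library left out, IER5 ran from 1.13 to 2.66 and EGR2 from 1.01 to 2.42. NR4A3 was lower by -0.71 ± 0.25 (adjusted p = 0.026, edgeR), which did not pass with DESeq2 (adjusted p = 0.14), without shMETTL3 replicate 2 (-0.48) or without shMETTL14 replicate 1 (-0.54). Neither EGR3 at 1.05 ± 0.47 nor NR4A1 at 0.18 ± 0.29 passed (adjusted p = 0.082 and 0.66, edgeR). The SRF difference was lost with DESeq2 (1.07, adjusted p = 0.079), with library size alone (0.84, adjusted p = 0.061), without shMETTL3 replicate 2 (0.78, adjusted p = 0.16) and without shMETTL14 replicate 1 (0.88, adjusted p = 0.19), and that of EGR2 without shMETTL14 replicate 1 (1.44, adjusted p = 0.059).

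Gene length moved with these values. Among the other genes tested, the median log2 fold change of shMETTL3 against shControl was -0.31 for genes of up to 5 kb and 0.28 for genes over 100 kb, and that of shMETTL14 against shMETTL3 was 0.45 and -0.38. In the latter comparison 25.6% of other genes of up to 5 kb were called higher, and 8.77% of those over 100 kb. EGR1, EGR2, IER2, IER3 and IER5 are 1.4 to 4.4 kb long. With trends on length and GC content taken out of each library, a correction chosen after seeing the data, EGR1 remained higher with shMETTL14 than with shMETTL3 at 1.38 and IER2 at 0.88 (adjusted p = 6.4e-10 and 0.0008, edgeR). IER3 at 1.48 and IER5 at 0.97 also passed (adjusted p = 0.02 and 0.027, edgeR), while EGR2 at 0.83 and SRF at 0.55 did not (adjusted p = 0.12 and 0.23, edgeR). NR4A2, at -1.04, then passed as lower (adjusted p = 0.0033, edgeR).

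**Figure D3:**
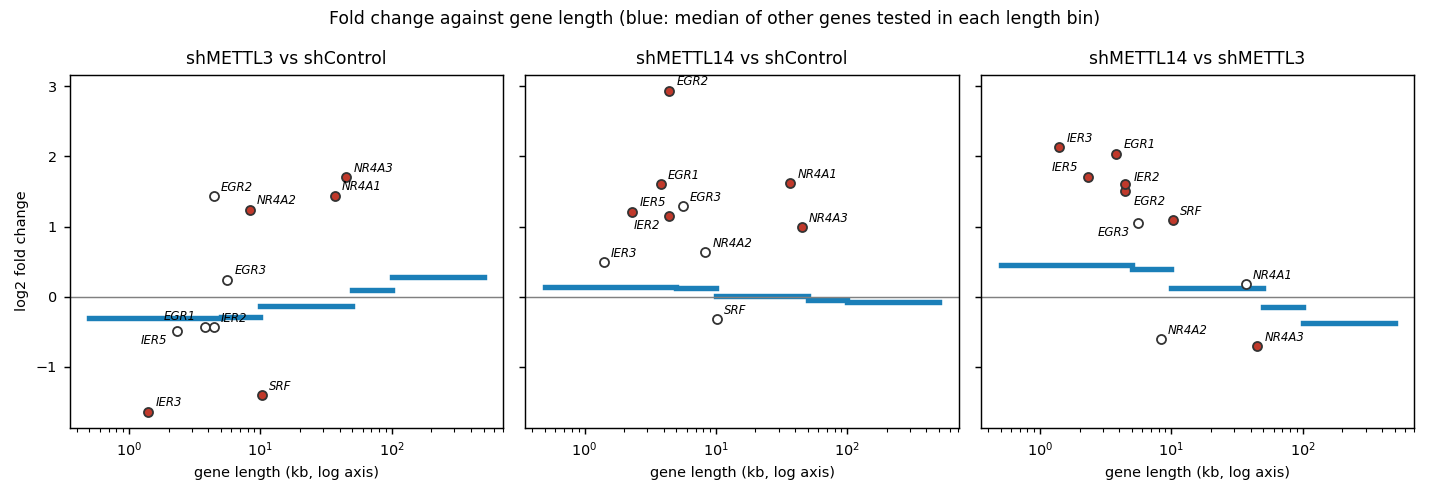
Log2 fold change of the 10 genes against their length in kb (log axis) in 3 comparisons, with filled points for an adjusted p below 0.05 (edgeR) and blue lines at the median of the other genes tested in each length bin. In shMETTL14 against shMETTL3 the blue lines run from 0.45 for genes up to 5 kb to -0.38 for those over 100 kb, and EGR1 lies at 2.04 and NR4A3 at -0.71.

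The same correction changed the shMETTL3 values of the short genes most. Against shControl, EGR1 was at 0.01, IER2 at 0.05 and IER5 at 0.01 with it, EGR2 rose by 1.90 (adjusted p = 0.017, edgeR), and IER3 at -1.18 was no longer called (adjusted p = 0.11, edgeR). SRF at -1.05 and NR4A3 at 1.69 kept their calls (adjusted p = 0.021 and 1.3e-05, edgeR). With shMETTL14 against shControl, EGR1 was at 1.39, EGR2 at 2.74, IER2 at 0.93 and IER5 at 0.98, and each passed (adjusted p = 2.3e-10, 9.9e-05, 0.00044 and 0.025, edgeR). In senescence IER2 was called as well, at 0.59 (adjusted p = 0.043, edgeR).

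**Figure D4:**
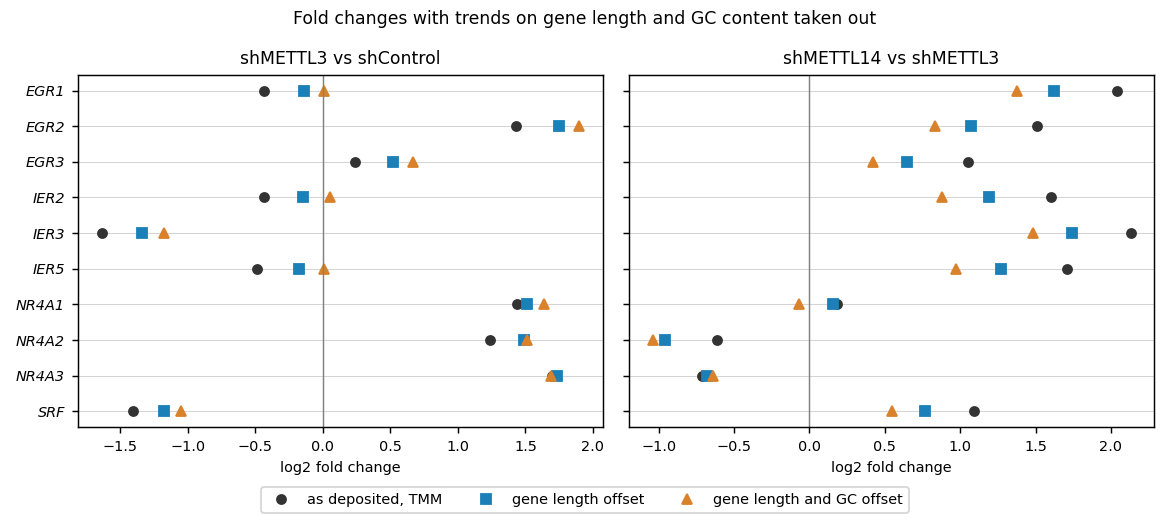
Log2 fold change of the 10 genes in shMETTL3 against shControl and in shMETTL14 against shMETTL3, as tested on the counts with TMM (circles), with a trend on gene length taken out (squares), and with trends on length and GC content taken out (triangles). EGR1 moves from -0.44 to 0.01 on the left and from 2.04 to 1.38 on the right, and NR4A3 moves from 1.70 to 1.69 on the left.

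Relatives of the set and the EGR corepressors were looked at next. EGR4, the remaining EGR gene, had 0 and 0 counts in control libraries, 2 and 0 for shControl, 1 and 0 for shMETTL3, and 34 and 21 for shMETTL14. Its signal lay almost wholly in the shMETTL14 libraries, with a ratio to shControl of 24.6 and an exact 95% interval of 6.49 to 208. EGR4 passed the filter on low counts only through these libraries, so it had to differ, and its values and its place in the counts below are a description. NAB1, a corepressor that binds EGR proteins, rose in senescence from 73 and 91 to 132 and 124 counts (1.03 ± 0.19, adjusted p = 0.00014, edgeR). NAB2, its paralog and itself an EGR target, fell from 83 and 82 to 38 and 28 counts (-0.93 ± 0.27, adjusted p = 0.012, edgeR), and fell again to 17 and 10 with shMETTL3 (-1.50 ± 0.36, adjusted p = 0.0031, edgeR). The NAB2 fall in senescence was lost with DESeq2 (adjusted p = 0.097) and without control replicate 1 or 2 or shControl replicate 2 (adjusted p = 0.075, 0.057 and 0.2, edgeR), and that with shMETTL3 was lost without shControl replicate 1 (-1.22, adjusted p = 0.072, edgeR). Of the 4 genes of this list, which also holds IER5L, 1 was higher and 1 lower in senescence, beside 13.3% of all genes in each direction. With shMETTL3 the counts were 0 and 1, beside 12.3% and 11.2%, and with shMETTL14 1 and 0, beside 9.15% and 12%. In shMETTL14 against shMETTL3 they were 2 and 0, beside 16.5% and 18.7%. NAB2 was the gene called there beside EGR4 (0.99 ± 0.38, adjusted p = 0.042, edgeR). That NAB2 call was lost without shMETTL3 replicate 2 (0.63) and without shMETTL14 replicate 1 or 2 (0.83 and 1.12).

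Of 21 other immediate-early genes outside AP-1, 20 were tested, and KLF2 did not pass the filter. In senescence 9 were higher and 2 lower, beside 13.3% of all genes in each direction, with a median log2 fold change of 0.76. HES1, a transcriptional repressor of the Notch pathway, went from 1 and 2 to 13 and 10 counts, a ratio of 10.0 (exact interval 3.02 to 52.1). HES1 is one of the 9, but it passed the filter only through the senescent libraries, so its values are a description. TRIB1, a pseudokinase, rose by 2.48 ± 0.21 (adjusted p = 4.6e-10, edgeR). The 2 that fell were CTGF and CYR61, matricellular proteins and targets of both SRF and YAP, at -1.13 ± 0.14 and -0.60 ± 0.15 (adjusted p = 5.1e-07 and 0.0031, edgeR). CYR61 narrowly missed the threshold without control replicate 1 or shControl replicate 1 (adjusted p = 0.052 and 0.051, edgeR). With shMETTL14, 10 were higher and 0 lower, beside 9.15% and 12% of all genes, with a median of 0.86. ARC, a synaptic immediate-early gene, went from 2 and 0 counts in shControl to 27 and 18 in shMETTL14 libraries, a ratio of 20.1 (exact interval 5.26 to 171). ARC too passed the filter only through the shMETTL14 libraries, and it is one of the 10 counted here and of the 13 counted between the knockdowns. With a library left out, 6 to 9 were higher. SIK1, a kinase gene induced by cAMP that reached the filter's minimum only in the knockdown libraries, went from 10 and 8 to 37 and 28 counts, a difference of 1.68 ± 0.41. It is counted among the 10 as a description, and its call was lost without shControl replicate 2 (1.48) or shMETTL14 replicate 1 (1.48).

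With shMETTL3, 2 of these 20 genes were higher and 4 lower, beside 12.3% and 11.2% of all genes, with a median of 0.13, so that the share higher was close to that of all genes. SIK1, one of the 2 and again a description, was at 34 and 26 counts (1.51 ± 0.42), and GEM, a small GTPase, rose by 0.75 ± 0.19 (adjusted p = 0.0054, edgeR), and both calls were lost without shControl replicate 2 (1.31 and 0.56). PHLDA1, a regulator of survival signalling, fell from 882 and 841 to 452 and 495 counts (-1.08 ± 0.14, adjusted p = 1.3e-06, edgeR). With trends on length and GC content taken out, the count with shMETTL3 was 6 higher and 1 lower, and with a library left out it was 0 to 3 higher and 1 to 5 lower. Between the knockdowns, 13 were higher with shMETTL14 and 0 lower, beside 16.5% and 18.7% of all genes, with these trends taken out 7 were higher and 2 lower, and with a library left out 6 to 12 were higher. ZFP36, a decay factor for short-lived mRNA, was among the 13, with 47 and 39 counts against 18 and 6 with shMETTL3 (1.88 ± 0.43, adjusted p = 0.0011, edgeR). Against control cells, 10 were higher and 5 lower with shMETTL3, beside 20.1% of all genes in each direction, and 15 higher and 1 lower with shMETTL14, beside 19.7% and 20.5%. The number lower with shMETTL3 did not hold without control replicate 1 or 2. That with shMETTL14 did not hold without control replicate 1 or shMETTL14 replicate 2. HES1 and SIK1 are among both counts of higher genes and ARC among the 15, each with no control library at the filter's minimum, so the counts describe the list.

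**Figure D5:**
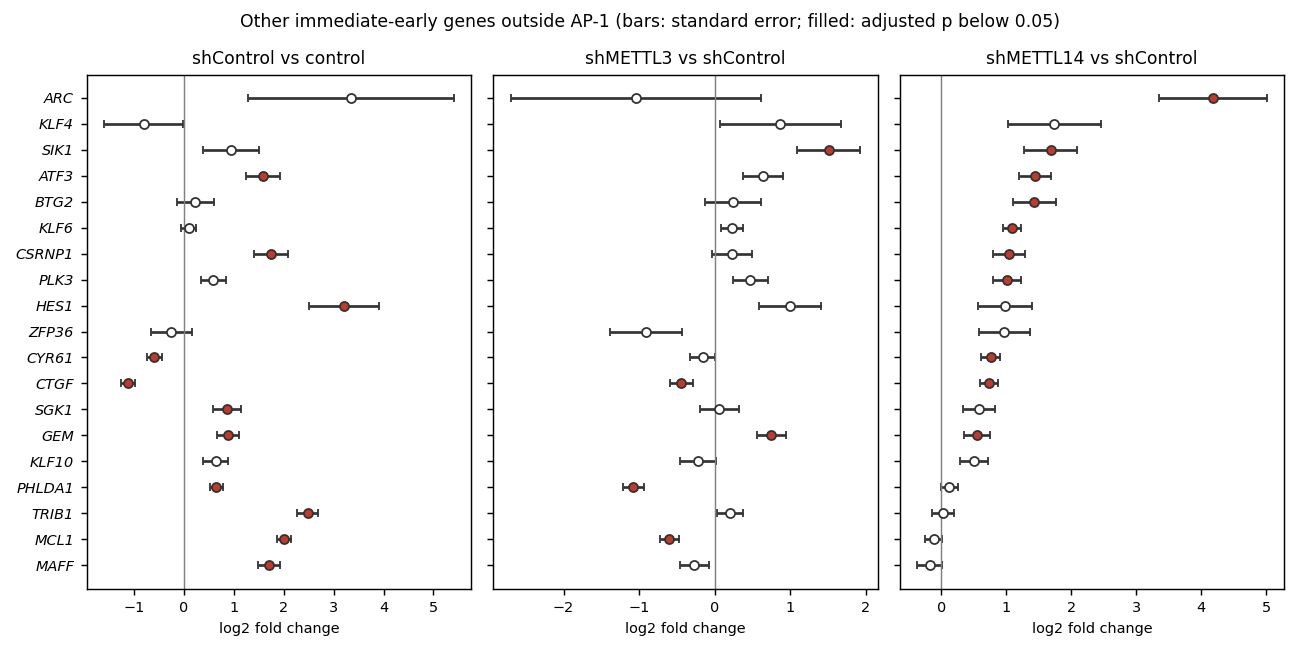
Log2 fold change of 19 other immediate-early genes outside AP-1, sorted by the shMETTL14 value, with bars for the standard error and filled points for an adjusted p below 0.05 (edgeR). In senescence 9 filled points lie above 0 and 2 below, with shMETTL3 2 above and 3 below (of the 4 called lower among the 20 tested, 1 is not plotted), and with shMETTL14 10 above and 0 below.

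SRF works with cofactors and has a second group of targets in the actin cytoskeleton. For reading the cofactor calls, 13.3% of all genes tested were called in each direction in senescence, and 12.3% higher and 11.2% lower with shMETTL3. The shares were 9.15% and 12% with shMETTL14, and 16.5% and 18.7% between the knockdowns. Of 6 cofactor genes, ELK3, a ternary complex factor, rose in senescence from 214 and 205 to 320 and 327 counts (1.01 ± 0.14, adjusted p = 3.7e-06, edgeR), while MYOCD and MKL1 fell (-1.07 ± 0.37 and -0.46 ± 0.14, adjusted p = 0.033 and 0.013, edgeR). Both of these falls were lost with any of the 4 libraries left out, when 0 of the list were lower. MYOCD reached the filter's minimum in control and shControl libraries but in no knockdown library, so its values with either knockdown are a description. MKL1 encodes the MRTF-A coactivator and MYOCD its muscle relative. With shMETTL3, MKL1 and ELK3 were higher (0.66 ± 0.14 and 0.42 ± 0.14, adjusted p = 0.00069 and 0.024, edgeR) and ELK4 lower (-0.75 ± 0.20, adjusted p = 0.007, edgeR), as was MYOCD at -1.36 ± 0.50, of which 0 to 1 were lower with a library left out. ELK3 lost its call without shControl replicate 1 or 2 or shMETTL3 replicate 1 (0.44, 0.38 and 0.33). With shMETTL14, 0 were higher and MYOCD was lower, at 5 and 4 counts against 14 and 15 (-1.82 ± 0.53), a call lost with any of these 4 libraries left out. Between the knockdowns ELK4 was higher with shMETTL14, and ELK3 and MKL1 lower, and with a library left out these counts were 0 to 1 and 0 to 2.

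Of 8 actin cytoskeleton targets, 0 were higher and 5 lower in senescence, where 13.3% of all genes were lower, with a median of -0.44. The number lower was 1 to 3 with a library left out. MYH9, a non-muscle myosin heavy chain, had 4204 and 3939 counts in control and 1902 and 2064 in shControl libraries (-0.65 ± 0.14, adjusted p = 0.00081, edgeR), and FLNA, an actin crosslinker, was at -0.64 ± 0.15 (adjusted p = 0.0021, edgeR) and was not called without shControl replicate 1 (-0.56). With shMETTL3, 0 were higher and 4 lower, where 11.2% of all genes were lower, with ACTG1 at -1.09 ± 0.14 and ACTB at -1.04 ± 0.15 (adjusted p = 2.1e-06 and 7.8e-06, edgeR). With shMETTL14, FHL2, an adaptor protein of focal adhesions, was higher (0.60 ± 0.18, adjusted p = 0.015, edgeR) and 4 were lower, where 12% of all genes were, led by TPM1, a tropomyosin, at -0.88 ± 0.15 (adjusted p = 8.6e-05, edgeR) and ACTG1 at -0.59 ± 0.14 (adjusted p = 0.0028, edgeR). With a library left out 0 to 1 were higher and 1 to 3 lower, FHL2 losing its call without shControl replicate 1 or 2 or shMETTL14 replicate 1 (0.71, 0.48 and 0.52) and ACTG1 without shControl replicate 2 (adjusted p = 0.051, edgeR). Between the knockdowns, 5 were higher with shMETTL14 and 2 lower, where 16.5% and 18.7% of all genes were, or 2 to 5 and 0 to 2 with a library left out. ACTB had 1640 and 1367 counts with shMETTL3 and 3812 and 2972 with shMETTL14 (1.22 ± 0.15, adjusted p = 4e-07, edgeR), and ZYX, a focal adhesion protein, was higher by 1.18 (adjusted p = 2.5e-05, edgeR). TPM1 at -0.52 and VCL, which encodes vinculin, at -0.47 were lower (adjusted p = 0.0076 and 0.0089, edgeR), and both calls were lost without shMETTL14 replicate 1. Against control cells, 0 were higher and 7 lower with shMETTL3, where 20.1% of all genes were lower, and 0 higher and 5 lower with shMETTL14, where 20.5% were.

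Genes with a group pattern like that of EGR1 and IER2, the only members with a mean of at least 50 counts, were sought among 6317 genes of that level, by the root mean square difference of centred log2 CPM over the 4 group means. For EGR1 the nearest were NFKBIA, the inhibitor of NF-kappaB, at 0.11 and TRIB3, a pseudokinase of the stress response, at 0.12. NFKBIA had 43 and 33 counts in control libraries, 54 and 73 for shControl, 70 and 32 for shMETTL3, and 277 and 203 for shMETTL14. For IER2 they were KDM6B, a histone demethylase, and PPP1R15A, a phosphatase subunit of the stress response, both at 0.07. KDM6B had 41 and 44 counts in control libraries, 51 and 49 for shControl, 48 and 30 for shMETTL3, and 120 and 101 for shMETTL14. These patterns share the same 8 libraries and rest on 4 group means.

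In the hg19 coordinates of the count table the whole gene bodies, introns included, were EGR1 chr5:137801181-137805004 (plus strand), EGR2 chr10:64571756-64576140 (minus), EGR3 chr8:22545174-22550815 (minus) and IER2 chr19:13261282-13265718 (plus). IER3 lay at chr6:30710976-30712327 (minus), IER5 at chr1:181057638-181059979 (plus) and SRF at chr6:43139033-43149244 (plus). NR4A1 lay at chr12:52416616-52453291 (plus), NR4A2 at chr2:157180944-157189287 (minus) and NR4A3 at chr9:102584137-102629173 (plus). Only IER3 overlapped another counted gene. STX10 begins 93 bases from IER2 on the opposite strand with 17 to 32 counts per library, and CUL9 lies 677 bases from SRF.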

How the data were processed

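FastGRO-seq was performed in IMR90 ER:RAS cells, 4 groups of 2 libraries that the study calls biologically independent. The authors aligned the reads to hg19 (their processing notes name STAR and deepTools 3.3) and the deposited values are raw counts over whole gene bodies, made with HOMER for genes condensed over transcripts, without normalization. The file header gives a strand setting, yet in 313 of 315 nested gene pairs on opposite strands (inner gene with at least 100 counts in all) the outer gene never had fewer counts, so reads of overlapping genes may not be separated. No library pair was a single library deposited again (variance 1.56 to 5.26 times the counting noise).

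Here, edgeR 4.0.16 (R 4.3.3) was fitted to all libraries with TMM, filterByExpr at a minimum count of 10 and a group design, over 12844 genes, with Benjamini-Hochberg adjustment and calls at 0.05. Its coefficient of biological variation was 10.6%. CPM and RPKM used TMM-scaled library sizes and the gene length in the deposited counts table. Tests were tried on simulated data. Alternatives were DESeq2 1.42.0, library size alone, no filter, only the groups compared, no ribosomal RNA rows, replicate number as a block and each library left out. Lowess trends on length and GC content of the gene body, taken out as offsets (span 0.3, GC content known for 99.7% of genes tested), were added after seeing the data. Intervals are exact and cover counting error only. Named genes were all 10 genes, up to 2 of the largest called rises and falls of each related list in senescence and among the senescent groups (against control the lists are given as counts), the 2 genes most alike, the targeted genes and neighbours. For 1 list member the value is not reported here, and it is left out of the plot of 19 genes, though it is counted among the 20 tested. EGR4 and ARC follow this rule, while the remaining list members named were those called. The genes and lists were chosen with earlier results of these data known. Marker lists held 8 fibroblast, 4 epithelial, 3 endothelial and 3 leukocyte genes.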

Additional observations from a re-analysis of the deposited data

Results flagged for a closer look

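Of the 10 genes, 7 differed between the knockdowns by the direct test of shMETTL14 against shMETTL3 (edgeR's quasi-likelihood test, 2 libraries a group), 6 higher and 1 lower, beside 16.5% and 18.7% of all genes. IER3 was below the filter's minimum with shMETTL3, so it is counted here as a description. The log2 differences were 2.04 for EGR1, 1.51 for EGR2, 1.60 for IER2, 2.13 for IER3, 1.71 for IER5 and 1.09 for SRF, each higher with shMETTL14, and -0.71 for NR4A3, which was higher with shMETTL3. SRF lost its call in 6 of 12 alternatives, NR4A3 in 3 and EGR2 in 2. IER3 and SRF fell with shMETTL3 against shControl and had values of 0.49 and -0.32 with shMETTL14, neither of which passed.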

How the results depend on the processing

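These counts of called genes among the 10 moved by over 1.5 times. In senescence 1 gene, SRF, was lower with library size alone, where 5015 of the 12844 genes tested were lower. The number lower with shMETTL3 against shControl was 1 with DESeq2, 0 with library size alone, 1 with a gene length offset, 1 with a length and GC offset, and 0 to 5 with each library left out. In shMETTL14 against shMETTL3 the number lower was 0 with DESeq2, 2 with library size alone, 2 with each offset and 0 to 1 with each library left out. Against control, 3 genes were higher with shMETTL3 when only the groups compared were fitted, since EGR2 and EGR3 then failed the filter and EGR1 the test, 1 to 2 were lower with a library left out, and the number lower with shMETTL14 was 0 with DESeq2 and 0 to 1 with a library left out. The cause of the other shifts was not tested. Of all 12844 genes, those lower with shMETTL3 against shControl were 727 with DESeq2, 353 with library size alone, and 1284 and 1465 with the offsets. In shMETTL14 against shMETTL3 they were 1707, 3486, 2101 and 1985. Against control, 2326 of 12280 genes were higher with shMETTL3 when only those groups were fitted. With DESeq2, 1842 of 12844 were lower with shMETTL14. In the related lists, leaving out a library took the 2 SRF cofactors lower in senescence to 0, the 5 actin targets lower in senescence to 1 to 3, and the 13 other immediate-early genes higher between the knockdowns to 6 to 12. Reversals were of genes that were not called. With library size alone NR4A1 in senescence was -0.49, EGR1, IER2 and IER5 with shMETTL3 were 0.16, 0.16 and 0.11, SRF with shMETTL14 was 0.03, and NR4A1 between the knockdowns was -0.07. With the length and GC offset EGR1, IER2 and IER5 with shMETTL3 were 0.01, 0.05 and 0.01 and NR4A1 between the knockdowns was -0.07. With each library left out in turn, IER5 in senescence ran from -0.69 to 0.26, NR4A1 in senescence from -0.27 to 0.38, EGR3 with shMETTL3 from -0.01 to 0.46, IER5 with shMETTL3 from -1.45 to 0.08, NR4A1 between the knockdowns from -0.12 to 0.58 and IER2 with shMETTL3 against control from -0.44 to 0.54. The lone library left in a group is then assumed to vary like the others. Replicate numbers did not pair the libraries (correlations of deviations -0.039 to 0.101), and with the replicate block 59 of 60 results kept their call, EGR1 with shMETTL3 becoming called at -0.46 (adjusted p = 0.045, edgeR). Removing the ribosomal RNA rows left all 60 calls as they were. Counts under 30 for EGR2, EGR3 and IER3 in most libraries limit what could be detected.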
